A study of Homo sapiens with 12 samples.

Results

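TRiC, also called CCT, is the chaperonin of the cytosol, and the 8 genes that encode its subunits are described here in HCT116 cells, an established human colon carcinoma line. The genes are TCP1, CCT2, CCT3, CCT4, CCT5, CCT6A, CCT7 and CCT8. They were matched by Ensembl identifier in a table of counts over whole gene bodies and in a table of counts over exons, and made up 8 of the 58051 genes in those tables. All 8 passed the filter on low counts, which 27915 genes passed in all.

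A chaperonin is a barrel of stacked rings that encloses an unfolded protein and lets it fold inside. In TRiC each ring holds a copy of every one of the 8 subunits at a fixed place, and the subunits bind and split ATP to open and close the lid. CCT2, CCT4, CCT5 and CCT7 sit next to each other on the side of the ring that binds ATP more tightly, and TCP1, CCT3, CCT6A and CCT8 sit on the other side. Actin and tubulin are its best known clients, and prefoldin, a complex that carries PFDN2 and PFDN5 among its subunits, holds these chains as they leave the ribosome and passes them to TRiC.

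The study knocked down PFDN2 or PFDN5 with an siRNA (siPFDN2 and siPFDN5), or used a control siRNA (siControl). All cells received their siRNA 24 h before serum was withdrawn, were starved of serum for 48 h, and were taken either at the end of starvation (before serum) or 90 min after serum was given back (after serum). This made 6 groups of 2 libraries from total RNA depleted of 18S rRNA, with gene-body totals between 59784425 and 136504590. The labels do not say whether the 2 libraries of a group came from separate cultures, so p-values measure the spread between these libraries, which may be technical, and each target was knocked down with 1 siRNA sequence.

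The siRNAs are shown because they define the groups. Their sequences, given 5′ to 3′ as in the labels, were looked up in the annotated transcripts on both strands.
siPFDN2: cagccuagugaucgauaca
siPFDN5: agagaagacagcugaggau
Along its full 19 bases siPFDN2 matched 1 transcript of PFDN2, siPFDN5 matched 11 transcripts of PFDN5, and neither matched a transcript of another gene. Within the transcripts of the 8 TRiC genes, the longest exact run shared with siPFDN2 was 9 bases, in CCT6A, and the longest shared with siPFDN5 was 10 bases, in CCT4. The control siRNA matched no transcript in full and shared at most 8 bases with a TRiC transcript, in CCT3.

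The targets were examined first, in counts-per-million (CPM), in which a gene's gene-body count is divided by the library total after TMM scaling. PFDN2 stood at 11.5 and 11.2 CPM before serum and 19.5 and 16.3 CPM after serum with siControl. With siPFDN2 it stood at 7.55 and 8.49 CPM and 8.73 and 9.47 CPM, so the siPFDN2 libraries were below siControl at both times. PFDN5 stood at 76.8 and 68.9 CPM in siControl and 41 and 44.2 CPM in siPFDN5 before serum. After serum it stood at 67.9 and 74 CPM in siControl and 67.5 and 68.6 CPM in the libraries labelled siPFDN5, and the groups overlapped. The deposited counts of PFDN5 therefore do not show the labelled knockdown after serum. Why they do not was not tested, and every value of that group below is given as that of libraries labelled siPFDN5.

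The cells carried the markers of their labelled type, with 6 epithelial markers summing to between 1465 and 2419 CPM. The 3 leukocyte, 2 endothelial, 1 hepatocyte and 1 neuron markers summed to at most 0.222, 0.835, 0.0952 and 1.02 CPM. The 3 fibroblast markers summed to between 3.98 and 15.7 CPM, nearly all of it COL1A1, with COL1A2 and DCN at most 0.0339 and 0.0702 CPM. Replicate 2 of siPFDN2 before serum stood apart from the other 11 libraries. Spearman's rho between the GC content of a gene and the deviation of its log2 CPM from the mean over libraries was 0.81 there and between -0.46 and 0.12 in the others. In the same library the TRiC genes lay as much as 1.08 log2 units under their level in replicate 1 (CCT8), except CCT7, which lay 0.02 above it. CCT3 and CCT7 have a GC content of 51.2% and 51.3% and the other 6 genes of 43.1% to 45.9%.

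All 8 genes were expressed at a high level in every group. On exon counts per kilobase of exon, scaled like CPM and averaged over the 12 libraries, CCT3 was highest at 180.7 ± 20.2 (SD, n = 12) and CCT5 was lowest at 78.8 ± 11.4. CCT4 followed CCT3 at 134 ± 20.8, then CCT7 at 122 ± 12.5, CCT6A at 110.4 ± 14.4, CCT8 at 101 ± 18.6, CCT2 at 97.9 ± 17.4 and TCP1 at 94.97 ± 15.6. The highest and the lowest therefore differed 2.29-fold, and all 8 ranked between 121 and 335 among 14990 protein-coding genes, of which the median stood at 4.08. Neighbours in this order differed little at its lower end. CCT8 exceeded CCT2 in 7 of 12 libraries and CCT2 exceeded TCP1 in 8 of 12, whereas CCT3 exceeded CCT4, and TCP1 exceeded CCT5, in 12 of 12.

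The order depended on the measure of length, and only the first place of CCT3 was shared. TPM (transcripts-per-million), computed here from the authors' estimated counts per transcript, gave CCT3 802, CCT5 670.4, TCP1 533, CCT7 518, CCT2 471, CCT8 398, CCT6A 365 and CCT4 341, a 2.35-fold range. CCT5 was lowest on exon counts and next to highest on TPM. Its exon length in the count table, 5839 bases, is the union of all annotated transcripts, while its main transcript, CCT5-203, is 1933 bases long and held 75.3% of the estimate of the gene on average. CCT4 went the other way, with an exon length of 2830 bases and a main transcript, CCT4-201, of 2520 bases.

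Relative to each other the subunits kept similar proportions in 11 of the 12 libraries. On exon counts per kilobase, the share of CCT5 in the summed level of the 8 genes ran from 8.34% to 8.93% over the 12 libraries and that of CCT6A from 11.4% to 12.7%. The widest ranges were those of CCT7, from 12.2% to 18.6%, CCT8, from 7.55% to 12.2%, and CCT3, from 18.3% to 22.0%. Both CCT7 and CCT3 had their highest share, and TCP1, CCT4 and CCT8 their lowest, in replicate 2 of siPFDN2 before serum.

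**Figure D1:**
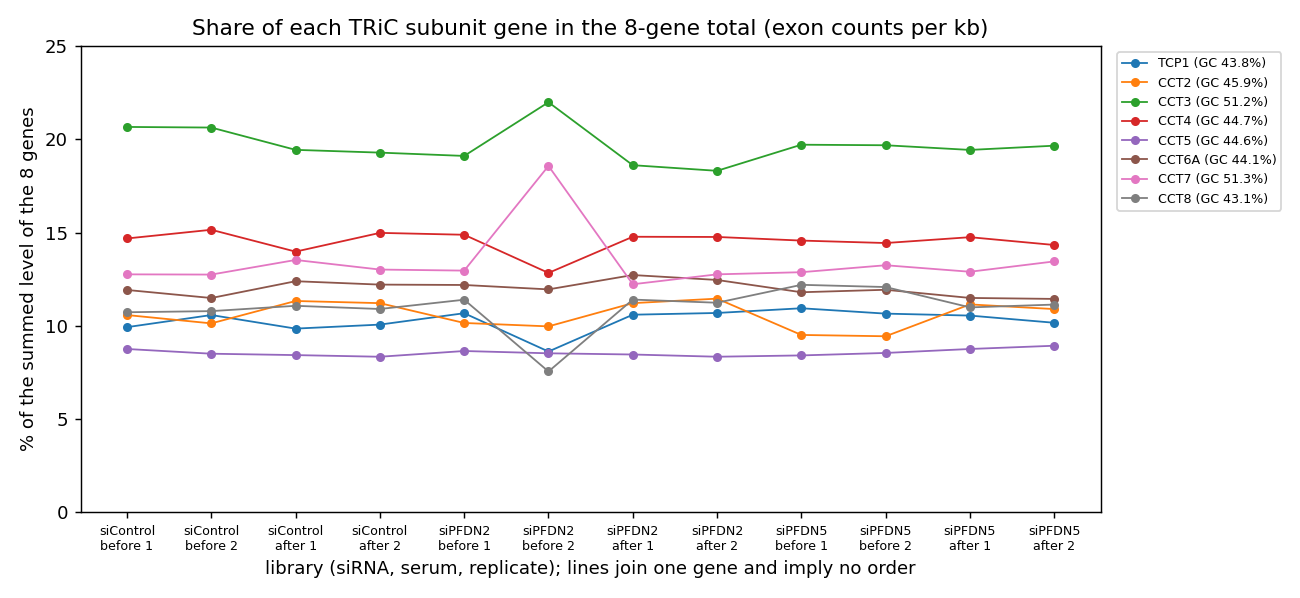
Share of each TRiC subunit gene in the summed level of the 8 genes (percent, exon counts per kilobase of exon) in each of the 12 libraries, with the GC content of each gene in the key. In 11 libraries the lines run nearly level. In replicate 2 of siPFDN2 before serum CCT7 reaches 18.6% and CCT8 drops to 7.55%.

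The genes lie on 7 chromosomes (GRCh38), CCT4 and CCT7 sharing chromosome 2. Counting was done without strand and gave a fragment to every gene it overlapped, so the overlaps of each member bear on its counts. CCT2 (chr12:69585334-69601570, plus strand) and CCT7 (chr2:73233420-73253021, plus strand) overlap no annotated gene. CCT3 (chr1:156308968-156367873, minus strand), CCT6A (chr7:56051630-56063989, plus strand) and CCT8 (chr21:29055805-29073797, minus strand) overlap genes whose exon counts were at most 0.168%, 0.0947% and 0.230% of the member's own. TCP1 (chr6:159778498-159789749, minus strand) overlaps ACAT2 on the opposite strand, whose exon counts reached 20.8% of those of TCP1, CCT4 (chr2:61868089-61888804, minus strand) overlaps the antisense gene AC107081.2, at up to 16.7%, and CCT5 (chr5:10249921-10266412, plus strand) overlaps the antisense gene AC012640.4, at up to 24.0%. For these 3 genes reads of the partner cannot be told apart from their own within the overlap.

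The promoters of the members are shown at the CCAAT box, which is carried by as many of them as the GC box and is the rarer of the pair among all windows. The RefSeq promoter table (GRCh38.p14) holds 9 windows for 7 of the 8 genes, all but CCT6A. A gene was taken to carry a motif if any of its windows did, while the percentages below are of single windows. Counts of genes and these percentages are therefore not in the same unit. The 250 bases before the start were searched on both strands for the CCAAT box, CCAAT or its reverse complement ATTGG, which 4 of the 7 genes carry (TCP1, CCT2, CCT3 and CCT8) and which 32.0% of all 35116 windows in the table carry. The stretches below run 5′ to 3′ along the gene's own strand, with the match in capitals.
TCP1, chr6:159789740-159789768, minus strand: atcggctatctaATTGGacaaaaatgccg
CCT2, chr12:69585356-69585384, plus strand: gcccgtggggctCCAATcaaaatgggacg
CCT3, chr1:156338310-156338338, minus strand: atgggtgcggtgATTGGcgactaccttga
CCT3, chr1:156338351-156338379, minus strand: ctaaggctgtcaATTGGtctgtttttgtg
CCT8, chr21:29073695-29073723, minus strand: aagggtgggctaATTGGagagccaggaag
The matches begin 154 bases before the start in TCP1, 91 in CCT2, 34 and 75 in CCT3 and 63 in CCT8. The start is that of the RefSeq promoter table, not the edge of the gene span given above. The stretches of CCT2, CCT3 and CCT8 lie inside those spans, and that of TCP1 crosses the edge of its span. The inverted repeat GAANNTTC of the heat shock element was found in TCP1 and in the second window of CCT2, against 5.78% of all windows, and TTCNNGAA in none of the 7 genes, against 6.62%. The ETS motif CCGGAA was found in CCT2 and CCT5 (14.5% of all windows), the GC box GGGCGG in TCP1, CCT2, CCT3 and CCT8 (42.6%), and the E-box CACGTG and the CRE motif TGACGTCA in none (6.34% and 1.65%). In these windows no match of 1 motif overlapped a match of another, and all are matches of letters only.

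Each of the 8 genes had its highest group mean in the libraries labelled siPFDN5 after serum. On the side of the ring that binds ATP more tightly, CCT2 measured 346 and 322 CPM in siControl before serum and 312 and 368 CPM after serum. With siPFDN2 it measured 344 and 239 CPM before and 398 and 415 CPM after serum. With siPFDN5 it measured 274 and 273 CPM before serum, and in the libraries labelled siPFDN5 after serum 472 and 437 CPM. Each pair was therefore close together, the first low and the second above all other libraries. CCT4 measured 316 and 316 CPM before and 253 and 322 CPM after serum with siControl. With siPFDN2 its values were 331 and 204 CPM and 344 and 351 CPM, with siPFDN5 before serum 274 and 274 CPM and in those labelled siPFDN5 after serum 409 and 376 CPM. Again the libraries labelled siPFDN5 after serum were above the other 10, and replicate 2 of siPFDN2 before serum was the lowest library.

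CCT5, in which inherited variants are known to cause a sensory neuropathy, measured 387 and 364 CPM before and 315 and 371 CPM after serum with siControl. It measured 396 and 277 CPM and 406 and 409.8 CPM with siPFDN2, 326 and 333 CPM with siPFDN5 before serum and 501 and 484 CPM in those labelled siPFDN5 after it. Its order of libraries was close to that of CCT4. CCT7 measured 347 and 336 CPM before and 309 and 355 CPM after serum with siControl. It measured 365 and 369.9 CPM and 361 and 385 CPM with siPFDN2, 307 and 318 CPM with siPFDN5 before serum and 454 and 448 CPM in those labelled siPFDN5 after it. Unlike the other members, CCT7 had no low value in replicate 2 of siPFDN2 before serum, and its siPFDN2 libraries before and after serum overlapped.

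On the other side of the ring, TCP1, the subunit that gave the family its name, measured 369 and 381 CPM before and 307 and 376 CPM after serum with siControl. It measured 411 and 235 CPM and 426 and 441 CPM with siPFDN2, 356 and 349.6 CPM with siPFDN5 before serum and 508 and 464 CPM in those labelled siPFDN5 after it. Both groups after serum with a prefoldin siRNA were above both siControl libraries. CCT3 measured 628 and 608 CPM before and 498 and 589 CPM after serum with siControl. It measured 601 and 491 CPM and 613 and 617 CPM with siPFDN2, 525 and 528 CPM with siPFDN5 before serum and 764 and 732 CPM in those labelled siPFDN5 after it. CCT3 was the only member whose siControl libraries did not overlap between the times, with those after serum lower, where 22.4% of tested genes had siControl groups apart in that direction.

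CCT6A, which has a separate paralog CCT6B, measured 354 and 330.4 CPM before and 309 and 363 CPM after serum with siControl. It measured 374 and 261 CPM and 408 and 409 CPM with siPFDN2, 307 and 312 CPM with siPFDN5 before serum and 441 and 416 CPM in those labelled siPFDN5 after it. Its lead in that last pair, labelled siPFDN5 and taken after serum, was small, and on exon counts its highest group mean was that of siPFDN2 after serum. CCT8 measured 274 and 268 CPM before and 239 and 280.0 CPM after serum with siControl. It measured 302 and 143 CPM and 317 and 319 CPM with siPFDN2, 274 and 272 CPM with siPFDN5 before serum and 363 and 348 CPM in those labelled siPFDN5 after it. The 2 siPFDN2 libraries before serum differed more in log2 CPM in CCT8 than in any other member. All values are relative to the total of a library, so a change in RNA per cell or in the mix of cells cannot be told apart from a change in these genes.

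**Figure D2:**
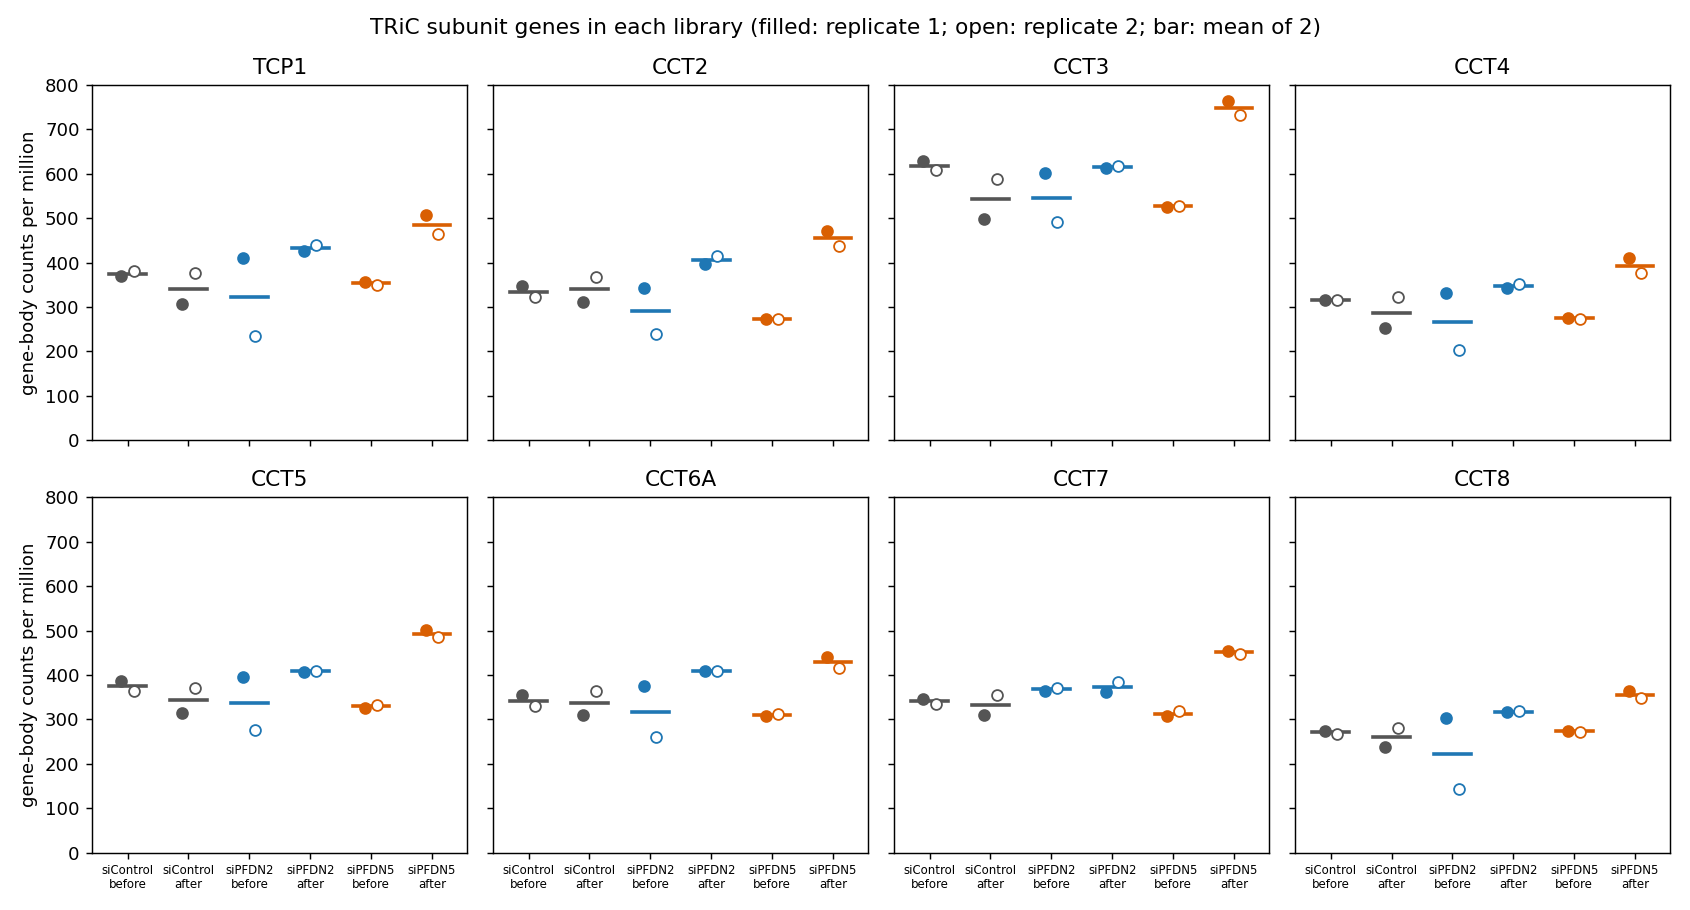
Gene-body CPM of the 8 TRiC subunit genes in each of the 12 libraries, by siRNA and time relative to serum. Filled points are replicate 1, open points replicate 2 and bars the mean of the 2. In each panel the libraries labelled siPFDN5 after serum have the highest mean, and replicate 2 of siPFDN2 before serum is apart from its partner in 7 of 8 panels.

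The serum response asks what serum does to starved cells under each siRNA. The siPFDN5 response sets the libraries labelled siPFDN5 after serum against the siPFDN5 libraries before serum. In it, 4 of the 8 genes rose and none fell, where 5.72% of all tested genes rose (edgeR's quasi-likelihood test, Benjamini-Hochberg adjusted p under 0.05, two-sided). CCT2 rose by 0.73 ± 0.17 (log2 fold change ± SE, adjusted p = 0.0256, edgeR), CCT5 by 0.58 ± 0.17 (adjusted p = 0.0489, edgeR), CCT7 by 0.53 ± 0.13 (adjusted p = 0.0269, edgeR) and CCT3 by 0.51 ± 0.14 (adjusted p = 0.0440, edgeR). The log2 fold changes of the members that did not pass were 0.52 ± 0.21 for CCT4, 0.47 ± 0.17 for CCT6A, 0.46 ± 0.22 for TCP1 and 0.38 ± 0.26 for CCT8, with adjusted p from 0.0927 to 0.345 (edgeR). The median of the 8 was 0.51 on the log2 scale and that of all tested genes -0.03. In all 8 genes both libraries labelled siPFDN5 after serum were above both siPFDN5 libraries before serum, where 36.8% of tested genes did so.

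The number that passed the threshold rested on the spread pooled over the 12 libraries. Here and below, a count printed without a share of all tested genes describes the members alone. That share moved with the setting, from 2.72% on exon counts to 12.4% with the GC trend removed. Such counts therefore cannot be set against all genes. It was 8 of 8 without replicate 1 or without replicate 2 of siPFDN2 before serum, where 19.8% and 20.1% of tested genes rose. It was 3 without either siControl library after serum, 1 without either siControl library before serum or without replicate 1 of siPFDN2 after serum, and 0 without replicate 2 of siPFDN2 after serum or without any 1 of the 4 siPFDN5 libraries. On exon counts it was 0, with log2 fold changes of 0.26 to 0.61, where 2.72% of tested genes rose, and with the exon counts and replicate 2 of siPFDN2 before serum left out it was 8. With the GC trend of each library removed it was 7, where 12.4% of tested genes rose. With replicate number added to the main fit it was lower than 4, as given in the closing section. Scaling by library size alone moved the median of all genes to -0.18 and that of the members to 0.36, with all 8 members positive and CCT2 as the 1 gene that passed.

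In siControl none of the 8 genes passed the threshold with edgeR or DESeq2, where 2.87% of all tested genes did in either direction (edgeR). At an unadjusted p under 0.05, 0 of the 8 and 12.4% of all tested genes passed. Their log2 fold changes ran from -0.19 to 0.03 with a median of -0.10, against 0.01 for all genes. In siPFDN2 none passed either with edgeR or DESeq2, where 3.26% of all tested genes did (edgeR). At an unadjusted p under 0.05, 1 of the 8 and 28.0% of all tested genes passed. The log2 fold changes there ran from 0.02 to 0.51 with a median of 0.37, which became 0.07 without replicate 2 of siPFDN2 before serum and 0.72 without replicate 1 of that group. In that last case 7 of 8 genes rose, where 24.6% of tested genes did. In 7 of the 8 genes, all but CCT7, the siPFDN2 libraries after serum were above those before serum, where 26.2% of tested genes did so. The size and the number called in siPFDN2 thus rested on which of its 2 libraries before serum was used, while the median was above 0 with either. Averaged over the 3 siRNAs, CCT2 alone rose, by 0.41 ± 0.10 on the log2 scale (adjusted p = 0.01995, edgeR), where 7.60% of all tested genes rose. The number called in that average was 1 without replicate 1 of siControl after serum, 4 without replicate 2 of siPFDN2 before serum (14.9% of tested genes), 8 without replicate 1 of that group (24.7%), and 0 without any 1 of the other 9 libraries.

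**Figure D3:**
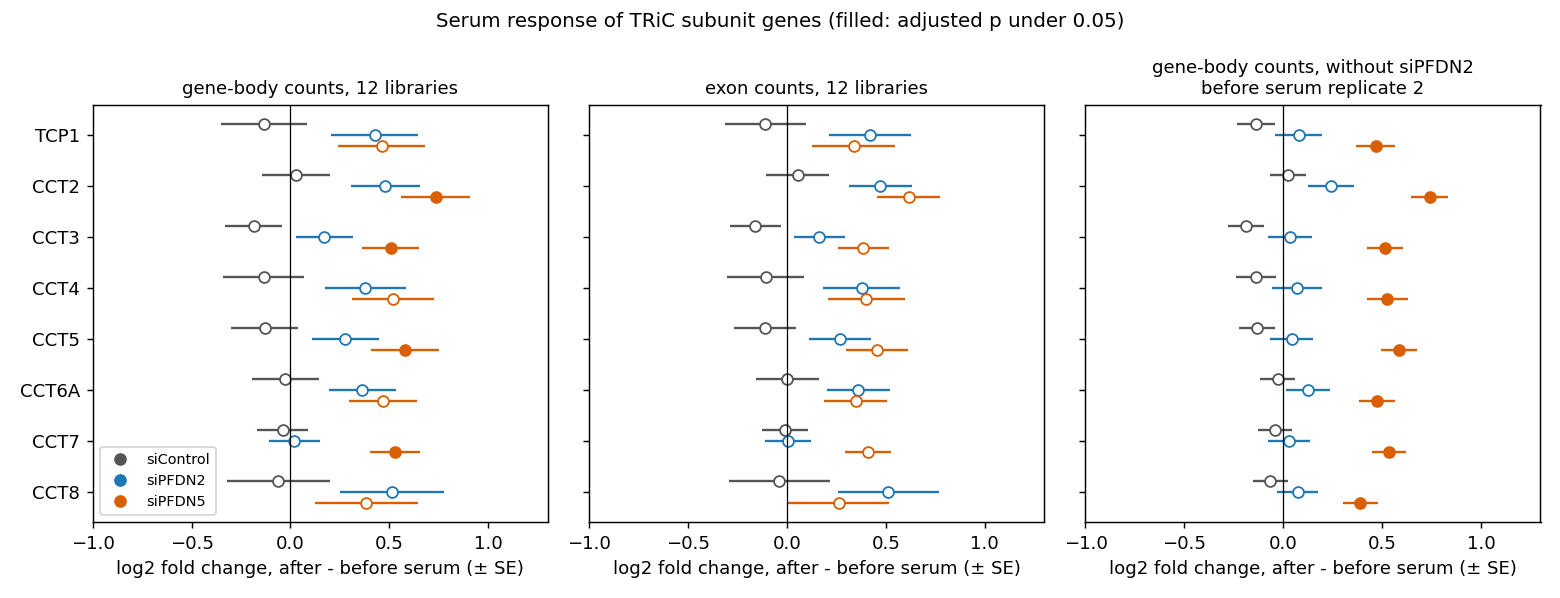
Log2 fold change after minus before serum (± SE) of the 8 TRiC subunit genes in siControl, siPFDN2 and siPFDN5. The left panel shows gene-body counts, the middle panel exon counts and the right panel gene-body counts without replicate 2 of siPFDN2 before serum. Filled points have an adjusted p under 0.05 in edgeR's quasi-likelihood test. The siPFDN5 points are at 0.26 or above in each panel, with 4, 0 and 8 filled.

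Whether the serum response differed from that of siControl was tested with an interaction contrast. The siPFDN5 response exceeded the siControl response by 0.45 to 0.71 on the log2 scale in the 8 genes, with a median of 0.62 against -0.03 for all tested genes. None passed the adjusted threshold (edgeR, smallest adjusted p = 0.104, CCT3, at 0.69 ± 0.20), where 0% of all tested genes did. At an unadjusted p under 0.05, 5 of the 8 genes passed, where 20.9% of all tested genes did. DESeq2 called 2. Without replicate 1 or without replicate 2 of siPFDN2 before serum 8 of 8 passed, where 12.1% and 12.2% of tested genes did in the same direction, and without replicate 2 of siControl after serum 2 passed. The siPFDN2 response exceeded that of siControl by 0.06 to 0.58, with a median of 0.43. None of the 8 was called by edgeR or DESeq2, where 0% of all tested genes were (edgeR), and 0 of the 8 and 6.60% of all tested genes passed an unadjusted p under 0.05. The median became 0.19 without replicate 2 of siPFDN2 before serum. It became 0.73 without replicate 1 of that group, with 7 of 8 genes called, where 19.5% of tested genes were.

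The siPFDN2 and siPFDN5 groups, as labelled, were then compared with siControl at each time. After serum, all 8 genes were higher in both libraries labelled siPFDN5 than in both siControl libraries, where 30.6% of tested genes did so. CCT5 differed by 0.52 ± 0.17 on the log2 scale, TCP1 by 0.51 ± 0.22, CCT3 by 0.46 ± 0.14 and CCT8 by 0.46 ± 0.26. For CCT4 the difference was 0.45 ± 0.20, for CCT7 0.44 ± 0.13, for CCT2 0.42 ± 0.17 and for CCT6A 0.35 ± 0.17. None of the 8 passed the adjusted threshold (edgeR, smallest adjusted p = 0.101, CCT7), where 0.00358% of all tested genes did. At an unadjusted p under 0.05, 5 of the 8 passed, where 21.6% of all tested genes did, and DESeq2 called 2. Without replicate 1 or without replicate 2 of siPFDN2 before serum 8 of 8 passed, where 13.6% and 13.8% of tested genes were higher, and without replicate 2 of siControl after serum 1 passed. The 2 siControl libraries after serum were themselves apart, with replicate 1 lower in all 8 genes by 0.25 log2 units on average, and the median difference was 0.34 without replicate 1 and 0.63 without replicate 2, against 0.45.

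After serum, siPFDN2 was also above siControl in both libraries for all 8 genes, where 22.5% of tested genes did so. The log2 differences ran from 0.17 to 0.34 with a median of 0.26, and none passed with edgeR or DESeq2, where 0% of all tested genes did (edgeR). At an unadjusted p under 0.05, 0 of the 8 and 6.26% of all tested genes passed. This median was 0.14 without replicate 1 and 0.46 without replicate 2 of siControl after serum. Both comparisons after serum use the same siControl libraries. Set against each other after serum, the libraries labelled siPFDN5 were above siPFDN2 in all 8 genes, where 31.6% of tested genes did so (on exon counts CCT6A overlapped), by 0.07 to 0.28 on the log2 scale, and none passed with edgeR or DESeq2, where 0.0179% of all tested genes did (edgeR). Of the 8 genes 0, and of all tested genes 7.92%, passed an unadjusted p under 0.05.

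Before serum the pattern was the opposite for siPFDN5 and without order for siPFDN2. In 7 of the 8 genes, all but CCT8, both siPFDN5 libraries were below both siControl libraries, where 30.5% of tested genes did so. On exon counts TCP1 overlapped as well, and CCT8 was higher in both siPFDN5 libraries. The log2 differences ran from -0.29 to 0.01 with a median of -0.17, and none passed with edgeR or DESeq2, where 0.00716% of all tested genes did (edgeR). Of the 8 genes 0, and of all tested genes 12.3%, passed an unadjusted p under 0.05. For siPFDN2, 1 gene (CCT7) was higher and 1 (CCT3) lower without overlap, where 15.8% and 15.4% of tested genes were. The log2 differences from siControl ran from -0.28 to 0.11 and none passed with edgeR or DESeq2, where 0% of all tested genes did (edgeR). Of the 8 genes 0, and of all tested genes 11.3%, passed an unadjusted p under 0.05. Their median was -0.19, and it was 0.09 without replicate 2 of siPFDN2 before serum. It was -0.47 without replicate 1, with 7 of 8 genes lower past the threshold, where 21.5% of tested genes were. Between siPFDN5 and siPFDN2 before serum, only CCT7 was apart, lower in siPFDN5, where 23.8% of tested genes were, and 0 of 8 passed with edgeR or DESeq2, where 0.0788% of all tested genes did (edgeR). At an unadjusted p under 0.05, 0 of the 8 and 29.0% of all tested genes passed. Without replicate 1 of siPFDN2 before serum 3 of the 8 were higher in siPFDN5 past the threshold, where 24.9% of tested genes were.

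Other genes of the pathway were read from lists chosen with earlier results of these data known, so their counts are descriptions. Of the 13 actins and tubulins, the main clients of TRiC, 9 rose in the siPFDN5 serum response and none fell, where 5.72% of all tested genes rose. Their median was 0.66 on the log2 scale. In the siControl response 0 of the 13 passed, with a median of 0.09, where 2.87% of all tested genes passed in either direction. The tubulin genes TUBA1A, TUBB2B and TUBB2A changed most in the siPFDN5 response. TUBA1A measured 46.8 and 43.8 CPM with siPFDN5 before serum, 159 and 108 CPM in those labelled siPFDN5 after it, and 129 and 64.4 CPM before and 54.8 and 72.2 CPM after with siControl. It rose by 1.56 ± 0.39 in the siPFDN5 response (adjusted p = 0.0301, edgeR), while its siControl replicates before serum were far apart. TUBB2A rose by 1.29 ± 0.19 (adjusted p = 0.00316, edgeR), from 9.97 and 9.57 CPM to 22.8 and 24.8 CPM. TUBB2B rose by 1.503 ± 0.32 (adjusted p = 0.0188, edgeR) at a level of at most 1.18 CPM. Both were also higher after serum with siControl. There TUBB2A went from 8.37 and 8.84 CPM to 12.2 and 14.7 CPM, and TUBB2B from 0.151 and 0.169 CPM to 0.382 and 0.401 CPM.

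Of the 12 heat shock genes listed, 3 rose and none fell in the siPFDN5 response, where 5.72% of all tested genes rose. The list holds chaperones, cochaperones and the transcription factors HSF1 and HSF2. DNAJB1, a cochaperone of HSP70, rose by 1.29 ± 0.13 (adjusted p = 0.000176, edgeR), from 76.1 and 80.3 CPM to 190.4 and 192 CPM, and it also rose in siControl, by 0.69 ± 0.12, and in siPFDN2, by 0.68 ± 0.12. HSPA8, the constitutive HSP70, rose by 0.70 ± 0.19 and DNAJA1 by 0.57 ± 0.17 (adjusted p = 0.0401 and 0.0498, edgeR). The inducible HSPA1B fell by 0.77 ± 0.17 in the siPFDN2 response, from 54.3 and 74.2 CPM, the higher in replicate 2, to 39.0 and 36.6 CPM. Averaged over the 3 siRNAs HSPA1A fell by 0.57 and HSPA1B by 0.40 on the log2 scale, but the siPFDN5 response showed no such fall. There HSPA1B went from 39.1 and 39.0 CPM to 38.4 and 41.1 CPM, and HSPA1A from 2.79 and 2.35 CPM to 2.60 and 2.90 CPM. Among the 6 prefoldin subunits 1 rose in the siPFDN5 response, PFDN5 itself, by 0.68 ± 0.14 (adjusted p = 0.0156, edgeR), and the median of the 6 was 0.37. Of the 9 tested cofactors of TRiC and of tubulin folding 1 rose, PDCL3, a phosducin-like cofactor of TRiC, by 0.65 ± 0.15 (adjusted p = 0.0253, edgeR). None of the 6 tested chaperonin-like genes and none of the 15 other reported clients passed, with medians of 0.18 and 0.17. On exon counts 5 of 13 actins and tubulins, 1 of 12 heat shock genes, 1 of 6 prefoldin subunits and 0 of 8 tested cofactors rose. Of all genes tested on exon counts, 2.72% rose.

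The gene-body table counts introns as well as exons, and the difference between the tables gives the intronic share. It was small in the TRiC genes, between 0.786% and 1.75% of their summed gene-body counts, against 11.3% to 23.6% for the median tested gene. It was lowest in the libraries labelled siPFDN5 after serum, at 0.804% and 0.786%, where it had been 1.37% and 1.29% before serum. The median tested gene moved likewise, from 21.7% and 19.7% to 11.3% and 11.5%. By gene, the share of CCT3 was 1.13 and 1.12% with siPFDN5 before serum and 0.579 and 0.628% in those labelled siPFDN5 after it, and that of CCT2 was 1.41 and 1.23% and 0.649 and 0.682%. CCT8 had the highest share of the 8 in that group, 1.75 and 1.54%, and TCP1 the lowest, 0.434 and 0.449%.

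In an edgeR fit of intronic against exonic counts within each library, 5 of the 8 genes (TCP1, CCT2, CCT3, CCT4 and CCT7) fell in intronic share in the siPFDN5 serum response, where 43.4% of the 17571 tested genes fell. The median log2 change of the 8 was -0.84 and that of all tested genes -0.81, but both depended on the scaling given below. Against siControl after serum 6 fell, all but CCT6A and CCT8, where 37.5% of tested genes fell, with medians of -0.92 and -0.74. On average over the 3 siRNAs 3 fell, where 21.8% of tested genes did, and in the interaction contrast of siPFDN5 2 fell, where 32.4% did. The members thus moved with the median tested gene here, and the part of that shift in their gene-body levels was not tested beyond the exon counts above. Summed over all genes, the share was 22.8% and 25.9% with siPFDN5 before serum. It was 17.2% and 14.8% in the libraries labelled siPFDN5 after serum, which overlapped siControl after serum at 20.6% and 16.2%. With exonic and intronic counts each scaled to their own total the numbers that fell became 0 and 2 in the siPFDN5 response and against siControl, 2 on average and 0 in the interaction. In the siPFDN5 response the medians were then -0.12 for the members and -0.087 for all tested genes, and in the interaction the median of the members turned from -0.88 to 0.056. The number in the siPFDN5 response was 0 without replicate 1 of siPFDN5 before serum or either library labelled siPFDN5 after serum, 1 without replicate 2 of siPFDN5 before serum, and 7 without either siControl library after serum, which enter only through the pooled spread. Against siControl it was 0 without replicate 1 of siControl after serum or either library labelled siPFDN5 after serum, and 8 without replicate 2 of siControl after serum.

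**Figure D4:**
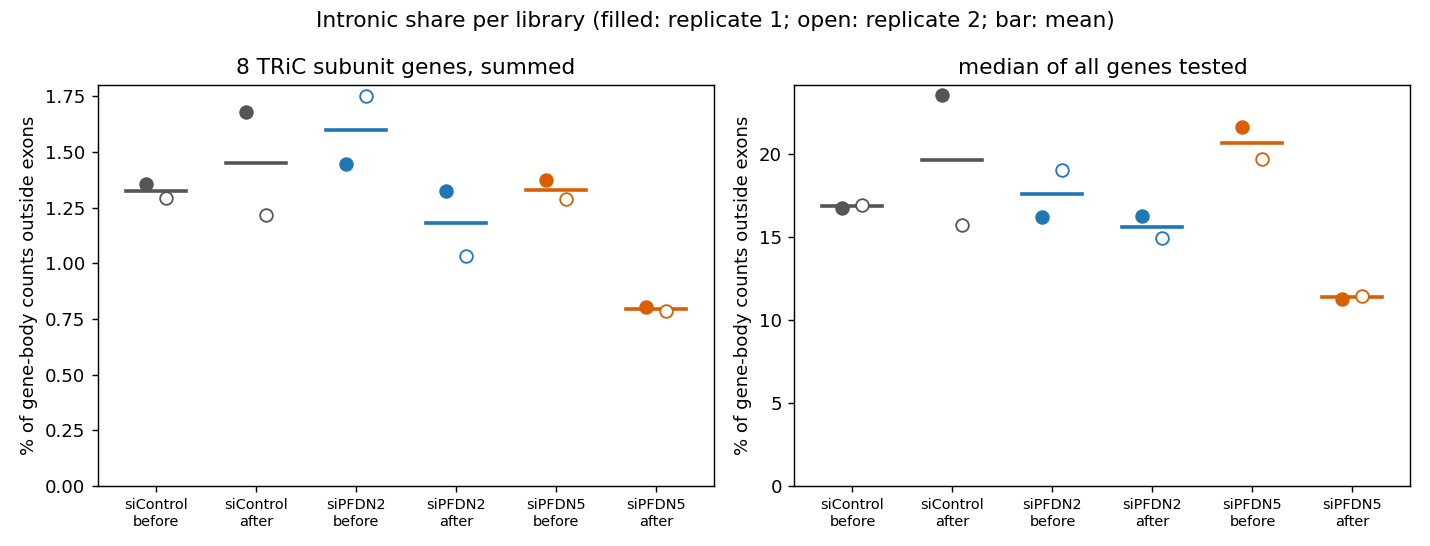
Share of gene-body counts that fall outside exons (percent) in each library, for the 8 TRiC subunit genes summed (left) and for the median tested gene (right, another scale). Filled points are replicate 1, open points replicate 2 and bars the mean. In both panels the libraries labelled siPFDN5 after serum are the lowest.

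The estimated counts per transcript, which share reads between overlapping transcripts and are described without a test, put most of each gene in 1 to 3 transcripts. CCT2-201, CCT6A-201 and CCT7-201, all protein-coding, held 97.2%, 97.5% and 96.4% of their genes on average over the 12 libraries. CCT8 was split between the protein-coding CCT8-201, at 48.3% to 54.4%, and CCT8-204, annotated as a processed transcript, at 44.3% to 49.9%. TCP1 was divided among TCP1-201, TCP1-202 and TCP1-203 at 38.86%, 37.9% and 18.9% on average. In CCT3 the protein-coding CCT3-201 held 73.0% to 80.3% in 11 libraries, and CCT3-203, annotated for nonsense-mediated decay, 10.5% to 18.8%. Replicate 2 of siPFDN2 before serum stood outside these ranges, with 52.1% for CCT3-201, 36.7% for CCT3-203, 39.8% for CCT4-204 (7.38% to 19.4% elsewhere) and 15.3% for TCP1-214 (0.957% to 2.62% elsewhere).

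Copies of the members elsewhere in the genome took few counts. The annotation names 13 pseudogenes of the 8 genes, of which 8 passed the filter on low counts, and together they came to between 0.686% and 0.964% of the summed CPM of the 8 members. The most abundant were CCT8P1, at 6.06 to 13.4 CPM, and CCT6P1, at 4.92 to 7.32 CPM, and reads shared with the parent genes cannot be assigned with certainty.

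The genes whose pattern over the 12 libraries was most like the mean of the 8 members were found by the root-mean-square distance of centred log2 CPM. Among 12105 genes they were COX7A2L (0.039), SOD1 (0.045), APOLD1 (0.048), MRPL16 (0.048) and ADH5 (0.048), where the median gene was at 0.290. The members themselves were between 0.032 (CCT5) and 0.162 (CCT7) from their mean, so CCT7 and CCT8 (0.152) were the least typical over the 12 libraries. In replicate 2 of siPFDN2 before serum CCT8 lay 1.08 log2 units under replicate 1, and CCT7 did not fall. Distances of members and of other genes were not computed without that library. APOLD1 and SOD1 overlap 3 and 2 other annotated genes. Only 2 of these 5 genes (SOD1 and APOLD1) were also among the 5 by Pearson's r and 2 (COX7A2L and SOD1) among the 5 on exon counts. The centred mean of the members was 0.39 and 0.31 in the libraries labelled siPFDN5 after serum and -0.48 in replicate 2 of siPFDN2 before serum, with the other 9 between -0.23 and 0.17.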

How the data were processed

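The 8 members and all gene lists were chosen with earlier results of these data known. The authors deposited counts of fragments per gene over gene bodies and over exons, per the file headers from featureCounts 1.5.2 with Ensembl release 87 of GRCh38, with both mates required to map, fragments counted once for every gene they overlap, and strand ignored. HISAT2 and kallisto 0.43 are named in the submitters' processing notes without a role. The files deposited per sample hold estimated counts per transcript, although their names say TPM. They were summed per gene, or divided by transcript length for TPM, and 6 table columns that match no sample label were not used.

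Gene-body counts were fitted with edgeR 4.0.16 in R 4.3.3 (filterByExpr, TMM scaling, glmQLFit with robust estimation). The model held 6 group means over 12 libraries and 12 comparisons, with two-sided quasi-likelihood tests and Benjamini-Hochberg adjustment over 27915 genes, or 24889 on exon counts. SE is the log2 fold change divided by the root of the F statistic. The intronic share used intron counts (gene body minus exons) beside exon counts, with library as a block, over 17571 genes with at least 10 intronic counts in 2 libraries. Both fits were tested on simulated data. The gene-body simulation had no GC trend and no outlying library, and the intronic simulation no library-wide shift in intronic share. Those features of the data were therefore not covered. All 8 members, list genes past the threshold (at most 3 per direction and list, by size of change) and both targets are named. Names, lengths and GC content came from GENCODE release 29. Alternatives were exon counts, other scalings, DESeq2 1.42.0, no filter, a replicate block, GC trend removal, transcript sums, only the libraries compared, and leaving out each library. Exon counts with the GC trend removed, and without replicate 2 of siPFDN2 before serum, were added after seeing the data.

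The main fit did not pair libraries by replicate number, and whether the numbers pair them was not settled. Gene-body totals of 59784425 to 136504590 give each member at least 16099 counts, so counting error is small beside the spread between libraries.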

Additional observations from a re-analysis of the deposited data

How the results depend on the processing

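The counts of members called in this section are printed without the share of all tested genes. They therefore do not show a trait of the members alone. In the siPFDN5 serum response 5.72% of all tested genes rose in the main fit and 12.4% with the GC trend removed. No member passed the threshold in opposite directions in the same comparison under different settings, but some medians changed sign. That of siPFDN2 against siControl before serum went from -0.19 to 0.087 without replicate 2 of siPFDN2 before serum. For the intronic share in the interaction of siPFDN5 it went from -0.88 to 0.056 with exonic and intronic counts each scaled to their own total. Under that scaling the intronic median of siPFDN5 against siControl before serum went from 0.0035 to -0.67. The median of all tested genes there went from 0.23 to -0.45. In the siControl response the intronic median of the members went from 0.043 to -0.17. Of the 8 members, the number called in the siPFDN5 serum response (4) became 0 on exon counts and on transcript sums, 2 with upper-quartile scaling and 1 with library size only, 7 with the GC trend removed, with or without the replicate block, and 8 with only the libraries compared and on exon counts without replicate 2 of siPFDN2 before serum. Its median log2 fold change, 0.51, became 0.32 on exon counts with the GC trend removed. In the interaction of siPFDN5 (0 called) DESeq2 called 2, no filter 1, the GC trend removed 3, and only the libraries compared, or exon counts without that library, 8, and its median of 0.62 became 0.39 on exon counts with the GC trend removed. In siPFDN5 against siControl after serum (0) DESeq2 called 2, the GC trend removed 3 (2 with the replicate block as well, 2 on exon counts), only the libraries compared 1 and exon counts without that library 8. On average (1) library size only gave 0, the GC trend removed 4 (3 with the replicate block as well, 4 on exon counts) and exon counts without that library 4. Of the comparisons with 0 called, siPFDN5 against siControl before serum had 4 with only the libraries compared and 1 on exon counts without that library, and siPFDN2 against siControl after serum had 2 on exon counts without that library. The siPFDN2 serum response had 1 on exon counts with the GC trend removed, and siPFDN5 against siPFDN2 after serum had 3 with only the libraries compared. The medians of the siPFDN2 serum response (0.17 with library size only, 0.081 on exon counts without that library), of its interaction (0.18) and of siPFDN2 against siControl before serum (0.071) also moved. By less than the spread between replicates, but by over 1.5 times, library size only and exon counts with the GC trend removed also moved 3 medians, that of siPFDN5 against siControl after serum (0.45) to 0.30 and 0.28, that of siPFDN2 against siControl after serum (0.26) to 0.15 and 0.18, and that of the siControl response (-0.10) to -0.17 and -0.053, the last also to -0.063 on transcript sums. Removing the GC trend moved the medians of the siPFDN2 response to between 0.20 and 0.23, of siPFDN2 against siControl before serum to between -0.090 and -0.079, and, on exon counts, of the siPFDN2 interaction to 0.28. Except where fewer libraries were fitted, the cause was not tested.

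The intronic share, with exonic and intronic counts each scaled to their own total, gave medians far nearer 0 in the siPFDN5 response (-0.12 in place of -0.84) and 0 called there (5), 2 against siControl after serum (6), 0 in the interaction (2, and 0 with no minimum on intronic counts), 5 in the siPFDN2 response (0) and 6 in siPFDN5 against siPFDN2 before serum (0). On TPM the shares of the 8-gene total were 13.02% for TCP1, 11.5% for CCT2, 8.30% for CCT4, 16.3% for CCT5, 8.91% for CCT6A and 9.68% for CCT8, and 2 of the 5 genes most like the members were kept under each other measure.

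Leaving out 1 library at a time moved the number called between 0 and 7 in siPFDN2 against siControl before serum, in the siPFDN2 response and in its interaction, between 0 and 8 in the siPFDN5 response, its interaction, siPFDN5 against siControl after serum and the average, and between 0 and 3 in siPFDN5 against siPFDN2 before serum. Where this left 1 library in a group, it was assumed to vary like the others. Medians ran from -0.47 to 0.087 in siPFDN2 against siControl before serum, 0.14 to 0.46 after serum, 0.34 to 0.63 in siPFDN5 against siControl after serum, -0.28 to 0.040 in the siControl response, 0.071 to 0.72 in the siPFDN2 response, 0.50 to 0.55 in the siPFDN5 response, -0.25 to 0.26 in siPFDN5 against siPFDN2 before serum, and 0.19 to 0.73 and 0.48 to 0.86 in the interactions of siPFDN2 and siPFDN5. For the intronic share the number called ran from 0 to 8 in siPFDN5 against siControl after serum, 0 to 7 in the siPFDN5 response, 1 to 6 on average, 0 to 5 in the interaction of siPFDN5, 0 to 1 in the siControl response and the interaction of siPFDN2, and 0 to 3 in siPFDN5 against siPFDN2 after serum.

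Libraries share replicate numbers across groups. The deviations of same-numbered libraries correlated from -0.32 to 0.59 over 12113 genes, and in only 4 of 15 pairs of groups over 0.1. With a single difference between replicates per group, these correlations cannot exclude that the numbers pair the libraries. The main fit left the numbers out. With the replicate block, the number called in the siPFDN5 response was 2 and its median 0.51, and in no other comparison did the block alone change the number called. The limits are 2 libraries per group, the distance between the 2 siPFDN2 libraries before serum, since leaving out either of them gave 8 of 8 in the siPFDN5 response, in its interaction and against siControl after serum, and counts taken without strand.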
